A study of Mus musculus with 9 samples.

Results

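Prss56 (ENSMUSG00000036480) encodes a secreted trypsin-like serine protease and is 1 of 47729 gene identifiers in the count table of 9 mouse retina libraries. It was chosen by its levels in the P60 retinas against wild-type C57 retinas, where it is among the genes with the highest fold change. Those levels are given here as a description without a test. Yap CKO against control retinas played no part in that choice and is tested.

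Prss56 is known as an eye growth gene: loss of its function gives small, far-sighted eyes in humans and mice, and its main retinal source is the Müller glial cell. Müller cells span the retina, recycle glutamate and retinoids, and become reactive when photoreceptors die. In rodents the reactive cells raise intermediate filaments and cytokine signals and seldom divide. YAP, a transcriptional coactivator of the Hippo pathway, is one of the factors studied in that response, and the series asks how it bears on Müller cells leaving quiescence.

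Each library came from 1 frozen retina on a C57Bl6/J background, and there were 3 libraries in each of 3 groups. Mice of the Yap CKO group were Yap flox/flox with Rax-CreERT2, which allows deletion in Müller cells once 4-hydroxytamoxifen is given. Control mice were Yap flox/flox without Cre, according to the design text, although their genotype entry also reads Yap CKO. All P60 mice, of either genotype, had been injected with it at P10. C57 retinas were wild type, were collected at P30 and are re-analysed from an earlier series, with no injection described. Library names of the control and Yap CKO retinas contain the letters MNU, which the labels do not explain. Age, floxed allele, tamoxifen, whatever MNU refers to and source series therefore cannot be told apart between C57 and P60. The labels do not say that the retinas of a group came from different animals, so p-values measure the spread between these libraries, which may be partly technical.

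Depth was 13760765 to 16808499 counts in C57 and 34739679 to 37629264 counts at P60. One C57 library carries a number that no sample description shares, so it is called the unnumbered C57 library. Yap1, the deleted gene, stood at 57.6 to 67.4 CPM in the controls and at 15.3 to 24.3 CPM in Yap CKO, without overlap. CPM here are counts relative to library size after TMM scaling over all 9 libraries. The Müller markers Glul and Rlbp1 were present in every library. Yap CKO 3 carried the lens transcript Cryaa at 544 CPM, against at most 12.6 CPM in any other library. Xist, which is transcribed from an inactive X, was at 174 and 208 CPM in Yap CKO 1 and 2, at 0 in Yap CKO 3 and at most at 0.075 CPM in the controls. It was at 135, 0.29 and 181 CPM in C57, so it differs between C57 and control as well. In whole retinas, fewer cells of a type and less RNA per cell cannot be told apart.

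Prss56 lies on chromosome 1, from 87183313 to 87188405 on the plus strand of GRCm38. GENCODE M21 gives it 1 transcript with 13 exons and 2180 exonic bases. None of its span is shared with another annotated gene (0 overlapping genes), so no other annotated gene competes for its reads. The sequence around its start is shown because the gene is at a low level in C57 and among the most abundant transcripts per length at P60. It is taken from RefSeq (GRCm38.p6, chr1:87183064-87183363, plus strand, 250 bases before to 50 bases after the start). Capitals mark matches to the motifs searched on both strands.
Prss56 promoter: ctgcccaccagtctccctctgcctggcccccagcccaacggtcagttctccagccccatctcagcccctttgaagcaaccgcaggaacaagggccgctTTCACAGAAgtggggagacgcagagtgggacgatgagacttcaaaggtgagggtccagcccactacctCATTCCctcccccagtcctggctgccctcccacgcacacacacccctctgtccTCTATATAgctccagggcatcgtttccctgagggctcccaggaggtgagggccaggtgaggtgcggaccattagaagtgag
The window held 1 match to the STAT motif TTCNNNGAA, whose first base lies at -152 counted from the start, and 8.33% of 32544 promoter windows of the same length hold one. It held 1 match to the TEAD motif GGAATG, the motif of the factors that recruit YAP, on the minus strand from -84 (14.6% of all windows). There was no match to the AP-1 motif TGANTCA (7.79% of windows), the EGR motif GTGGGCG (8.0%) or the cAMP response motif TGACGTCA (1.8%). The motif TATANA, added after the sequence had been seen, had 3 matches that overlap each other, on both strands of the last stretch in capitals (24.4% of windows). GC content of the window was 61.7%, against a median of 53.0% over all windows. These are letter matches in a short window and say nothing about binding.

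In the wild-type C57 retinas Prss56 was detected at a low level. It had 79 counts in C57 1, 33 in C57 2 and 25 in the unnumbered C57 library, or 6.62, 2.38 and 1.74 CPM (3.58 ± 2.65, SD, n = 3). C57 1 was the high library of this group. Its unscaled CPM of 5.74 had a 95% exact binomial interval of 4.55 to 7.15, above the interval of 1.42 to 2.89 in C57 2, so the difference was larger than counting error. Such intervals cover counting error only.

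In the control retinas Prss56 had 57091, 79875 and 81359 counts. These corresponded to 1525, 2008 and 1997 CPM in control 1, 2 and 3 (1843 ± 276, SD, n = 3). Control 1 was the low library of its group, and all controls lay at least 230-fold above the highest C57 library. In the Yap CKO retinas the counts were 47722, 65780 and 77924. The levels were 1216, 1712 and 1965 CPM in Yap CKO 1, 2 and 3 (1631 ± 381, SD, n = 3). Every Yap CKO library lay at least 184-fold above the highest C57 library, and 2 of them lay within the range of the controls.

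**Figure D1:**
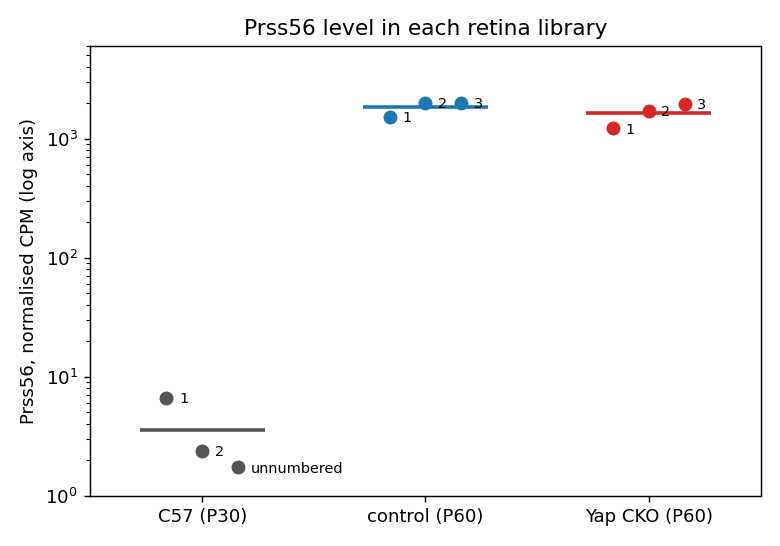
Prss56 level (TMM-scaled CPM, log axis) in each of the 9 libraries by group, with points numbered by replicate and horizontal lines at the group means. C57 libraries sit between 1.74 and 6.62 CPM, while control and Yap CKO libraries sit between 1216 and 2008 CPM and overlap each other.

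The fitted log2 fold change was 9.01 (SE 0.52) for control against C57 and 8.81 (SE 0.59) for Yap CKO against C57, as a description of the values that chose the gene. Both comparisons share the C57 libraries. The ratios of mean CPM were 515 and 456. The size of these ratios depended on C57 1: without it the log2 fold changes were 9.78 and 9.58. C57 and P60 retinas differed widely. Of 15820 genes, 45.5% were called in control against C57 (23.1% higher, 22.4% lower; edgeR, adjusted p under 0.05), and for 58.5% the groups did not overlap. Of 15840 genes, 40.5% were called in Yap CKO against C57 (20.3% higher, 20.2% lower), and for 55% the groups did not overlap. Prss56 ranked 17 and 10 by log2 fold change among all genes tested. Among the 2158 and 2110 genes whose P60 group averaged 100 CPM or more, it ranked 4 and 1. By the difference in CPM itself it ranked 2 and 3 among all genes tested.

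The gene took 0.157%, 0.223% and 0.216% of all counts in control 1, 2 and 3, and 0.129%, 0.189% and 0.210% in Yap CKO 1, 2 and 3. Levels of different genes were compared per length, as counts divided by exonic length, over 21684 nuclear protein-coding genes. On that scale Prss56 ranked 8, 2 and 2 in control 1, 2 and 3 and 14, 7 and 3 in Yap CKO 1, 2 and 3. Its ranks in C57 were 8872, 11171 and 11605. A transcript from the middle of the list thus stood among the leading transcripts of the whole retina in every P60 library.

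**Figure D2:**
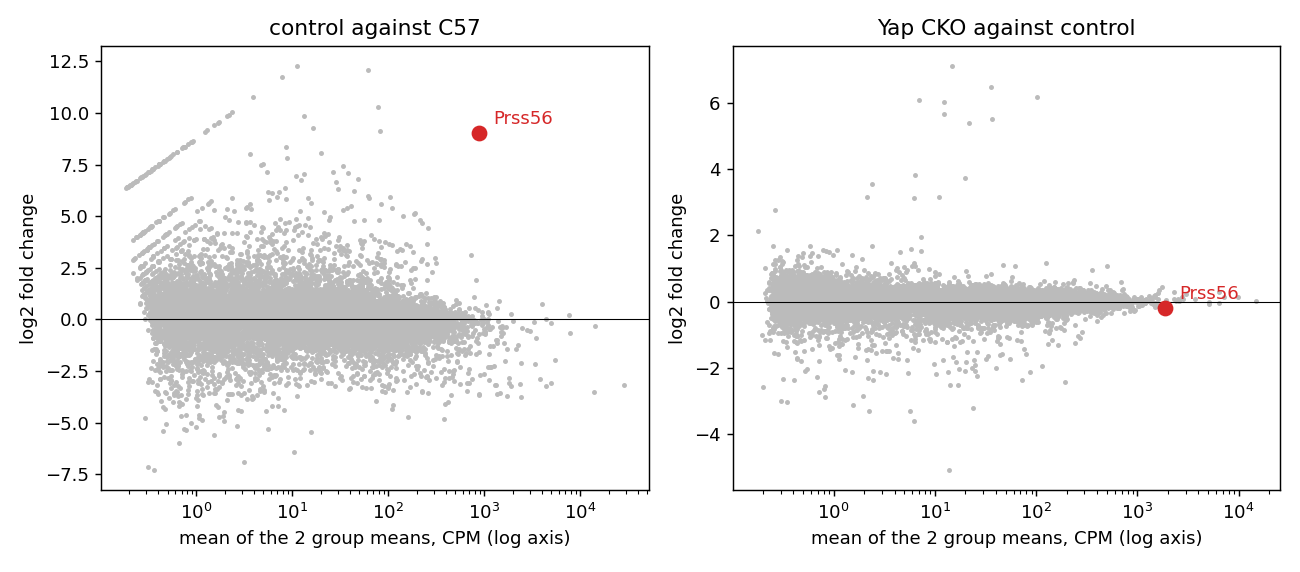
Log2 fold change against the mean of both group means (CPM, log axis) for every gene tested, with control against C57 on the left and Yap CKO against control on the right. Each grey point is a gene and the red point is Prss56, at 9.01 on the left and at -0.18 on the right.

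The comparison of Yap CKO with control asks whether the level of Prss56 at P60 differs when Yap has been deleted in Müller cells. Groups differ in the Cre allele as well, and in Xist as given above. Prss56 did not pass the test. Its log2 fold change was -0.18 (SE 0.20, adjusted p = 0.701, edgeR quasi-likelihood test adjusted over 16539 genes, n = 3 per group), and the groups overlapped. An approximate 95% interval on 4 residual degrees of freedom ran from -0.73 to 0.37 on the log2 scale, so moderate differences in either direction are not resolved by these libraries. In this comparison 0.2% of genes were called, 30 of them lower (0.181%) and 3 higher (0.0181%), and 57.5% of genes had a smaller p than Prss56. That count rests on single libraries, being 0 without control 1 or control 2 and 1473 without Yap CKO 3. The lowest Prss56 level was in Yap CKO 1. Without that library the log2 fold change was -0.0022. The authors' deposited table of 305 genes for this comparison, whose smallest absolute log2 fold change is 0.587, does not list Prss56. Yap CKO 3, the library with lens transcripts and without Xist, stood at 1965 CPM, inside the range of the controls. Leaving it out gave a log2 fold change of -0.33 (edgeR adjusted p = 0.422).

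Whether Prss56 followed the general level of Müller glia transcripts was examined with 16 Müller glia markers. Among them were Glul (glutamine synthetase), Rlbp1 (the retinaldehyde-binding protein) and Aqp4 (a water channel). The 16 genes were lower on average at P60. Their mean log2(CPM + 1) was 8.03, 7.97 and 7.93 in C57, 7.53, 7.26 and 7.44 in control 1, 2 and 3, and 7.34, 7.22 and 7.61 in Yap CKO 1, 2 and 3. Against C57, 4 of the 16 were higher and 9 lower in control, beside 23.1% and 22.4% of all genes. The 4 higher were Crym, Sox2, Sox9 and Clu (log2 fold changes 2.32, 2.14, 1.65 and 0.89), so the marker mean averages opposite changes. The log2 level of Prss56 minus this marker mean was -5.10, -6.22 and -6.48 in C57. It was 3.05, 3.71 and 3.53 in the controls and 2.91, 3.52 and 3.33 in Yap CKO. Relative to the markers Prss56 was thus 9.36 log2 units higher in control and 9.19 higher in Yap CKO than in C57.

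Glul itself stood at 4182, 4028 and 3931 CPM in C57 and at 623 to 1100 CPM in the P60 libraries. Rlbp1 was at 727 to 805 CPM in C57 and at 235 to 338 CPM at P60. Both went the opposite way from Prss56. Between Yap CKO and control, the level of Prss56 relative to the 16 markers was 3.25 ± 0.32 against 3.43 ± 0.34 log2 units (SD, n = 3). The difference of -0.17 was smaller than the spread (two-sided exact permutation p = 0.5, where 3 against 3 allows no p below 0.1). With Glul, Rlbp1 and Slc1a3 as the only markers, the difference was 0.015, of the opposite sign.

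Genes of reactive glia moved with Prss56 between C57 and P60, the step that chose Prss56. All 18 genes of the gliosis list were called higher in control than in C57 (median log2 fold change 4.12, against 0.032 over all genes), and 16 of 18 in Yap CKO, beside 23.1% and 20.3% of all genes. Within the 6 P60 libraries their mean log2(CPM + 1) ran the other way from Prss56, though neither measure passed. Pearson's r was -0.59 (exact permutation p = 0.232, adjusted p = 0.541) and rho was -0.66 (exact permutation p = 0.175, adjusted p = 0.408). Gfap, the filament protein used as the standard sign of reactivity, was at 34.9 to 77.8 CPM in C57, 239 to 360 in control and 559 to 683 in Yap CKO. Gfap in Yap CKO lay above every control, with a log2 fold change of 1.07 that did not pass by edgeR (edgeR adjusted p = 0.0533). DESeq2, which called 919 genes in all, called 2 of the 18 higher, Gfap included, and 3 lower. By limma-voom 0 of the 18 were called. The authors' deposited table lists Gfap at 1.07 (adjusted p = 0.00813 by the authors' own test). The Prss56 levels, unlike those of Gfap, overlapped between Yap CKO and control. The difference between the 2 genes was not tested.

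**Figure D3:**
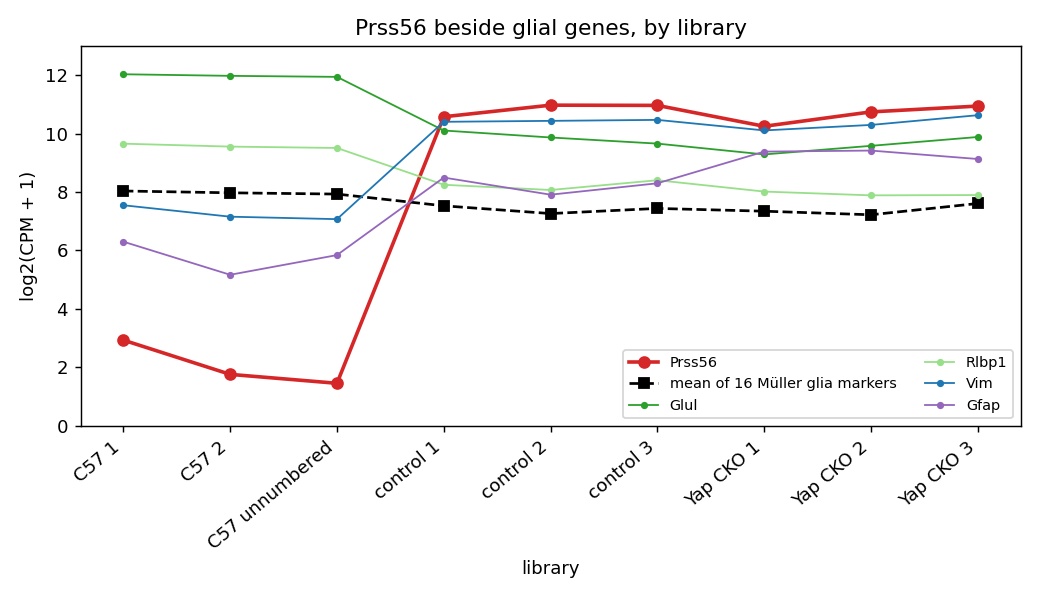
Log2(CPM + 1) of Prss56, of 4 single glial genes and of the mean of 16 Müller glia markers in each of the 9 libraries. Prss56 goes from at most 2.93 in C57 to at least 10.2 at P60, while the marker mean stays between 7.22 and 8.03.

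Rod transcripts, which differed widely among the P60 libraries, were set beside Prss56. The mean log2(CPM + 1) of 15 rod markers was 9.29, 7.07 and 8.30 in control 1, 2 and 3, against 11.65 to 11.66 in C57. It was 9.38, 8.53 and 5.29 in Yap CKO 1, 2 and 3. Yap CKO 1 and control 1, with the highest rod levels at P60, had the 2 lowest Prss56 levels. Pearson's r over the 6 libraries was -0.71 (exact permutation p = 0.103) and Spearman's rho was -0.83 (exact permutation p = 0.0583). Relations with 7 marker lists were computed, and both p-values came to 0.36 after Benjamini-Hochberg adjustment over them. Without control 2 and Yap CKO 3, the libraries farthest from the median rod level, r was -0.91 over 4 libraries. Each group holds 3 libraries, too few for a value within groups. Rod RNA is a large part of these libraries, and its part in the CPM of Prss56 was not tested. With the rod level as a covariate, the log2 fold change of Yap CKO against control was -0.26 (edgeR unadjusted p = 0.0629, adjusted p = 0.202).

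**Figure D4:**
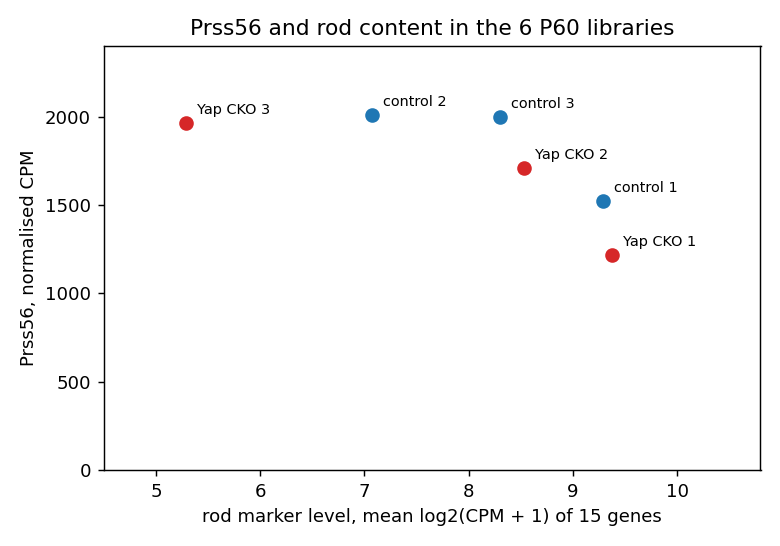
Prss56 level (CPM, linear axis from 0) against the mean log2(CPM + 1) of 15 rod markers in the 3 control (blue) and 3 Yap CKO (red) libraries. Yap CKO 1 and control 1 lie at the lower right, with rod levels of 9.38 and 9.29 and Prss56 at 1216 and 1525 CPM.

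Markers of other cells were followed beside Prss56 in the same 6 libraries. Pigment epithelium markers had r = -0.81 with Prss56 (exact permutation p = 0.0514, adjusted p = 0.36; rho = -0.77, exact permutation p = 0.103, adjusted p = 0.36). Without Yap CKO 1 and 3 that r was -0.93 over 4 libraries. Rpe65, which defines that tissue, was at 33.6 to 35.1 CPM in C57 and at 4.19 to 8.77 CPM at P60, so it was lower in the P60 libraries than in C57. For Müller markers, gliosis, microglia, lens and ciliary epithelium, r lay between -0.59 and 0.37 and none of these passed (adjusted permutation p of at least 0.408 for r and rho). Among 12 microglial markers, 2 were called higher and 3 lower in control than in C57, beside 23.1% and 22.4% of all genes. In Yap CKO against C57, 3 were higher and 3 lower, beside 20.3% and 20.2%, so these counts lie near the background. The summed level of the 12 markers was 113 to 131 CPM in C57, 115 to 129 in control and 108 to 152 in Yap CKO. Aif1 was between 0.43 and 1.17 CPM in all 9 libraries. Among the others, named after their values were seen, P2ry12 fell in control (log2 fold change -4.41, edgeR adjusted p = 6.75e-05) and C1qc rose (1.00, edgeR adjusted p = 0.00452). Optc, a defining transcript of the ciliary epithelium, another site where Prss56 is known to be expressed near the retinal margin, was at 9.05 to 18.4 CPM in C57, 32.6 to 82.2 in control and 15.01 to 29.5 in Yap CKO. Of the 7 ciliary markers, 6 were called higher and 1 lower in control than in C57 (median log2 fold change 1.66), beside 23.1% and 22.4% of all genes. In Yap CKO against C57, 6 were tested, with 4 higher and 1 lower (median 0.84), beside 20.3% and 20.2%. Msx1, with 2 counts over the C57 libraries, passed the filter only in control against C57, through its control level, which favours a higher call. The summed level of the 7 markers was 199 to 267 CPM in C57, 200 to 383 in control and 148 to 165 in Yap CKO. That sum rests in C57 on Aqp1, the member that was lower, at 147 to 190 CPM there and 3.58 to 32.9 CPM at P60. In Yap CKO against control edgeR called 0 of the 7 (4 lower at an unadjusted p under 0.05), DESeq2 called 3 lower and limma-voom called 0. Over all 16539 genes, 2950 had an unadjusted edgeR p under 0.05, and DESeq2 called 919. The part of any of these tissues in the Prss56 level was not tested.

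The genes whose pattern is most like that of Prss56 were found by Pearson's r of log2(CPM + 1) among 11678 named genes that averaged 5 CPM or more in some group. Over all 9 libraries the measure is dominated by the step from C57 to P60: 15.3% of genes had r above 0.9 and 0.916% had r above 0.99. The 10 highest, with r from 0.997 to 0.999, included Rab31, Vim, Trp53, Parp3, Ticam1, Pisd, Tubb6, Zfp593 and Rprm. Among the C57 libraries all 10 were highest in C57 1, as Prss56 was, beside 41.1% of all genes compared. Their selection by r favours this, so the ranking also rests on that library. Vim encodes vimentin, an intermediate filament of Müller cells, and Trp53 encodes p53, the transcription factor of the DNA damage response. Levels of Vim were 186, 141 and 133 CPM in C57 libraries, 1353, 1384 and 1416 CPM in controls, and 1103, 1256 and 1582 CPM for Yap CKO. Levels of Trp53 were 12.2, 9.52 and 8.95 CPM in C57 libraries, 49.7, 55.4 and 50.4 CPM in controls, and 41.6, 49.5 and 53.7 CPM for Yap CKO.

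These genes were picked for the shape of their profile, and the size of their step was smaller. Their log2 fold changes in control against C57 ran from 1.20 to 6.24, against 9.01 for Prss56. Within the 6 P60 libraries alone their r with Prss56 ran from -0.038 to 0.92. Trp53 and Vim were at the upper end, with r = 0.92 and 0.84.

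By distance on log2(CPM + 1), which also takes the size of the change into account, the 5 nearest genes were Fosl1, Lif, Aldh1a3, Tubb6 and Junb. Adding 1 CPM shrinks the step of genes below 1 CPM in C57, and other pseudocounts were not tried for this list. In control against C57 the fitted log2 fold changes of Fosl1 and Lif were 10.3 and 9.10, against 9.01 for Prss56. Fosl1 and Junb encode AP-1 transcription factors, Lif a cytokine that Müller cells release on photoreceptor injury, Aldh1a3 an enzyme of retinoic acid synthesis and Tubb6 a beta-tubulin. Fosl1, the nearest, was at 0.25, 0.14 and 0 CPM in C57 (5 counts in all). It was at 153, 179 and 160 CPM in the controls and at 87.1, 89.4 and 94.1 in Yap CKO. Lif was at 0.25 to 0.35 CPM in C57, 147 to 183 in control and 51.3 to 87.3 in Yap CKO. Aldh1a3 was at 0.22 to 0.62 CPM in C57, 51.5 to 87.1 in control and 105 to 199 in Yap CKO.

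Each of these 3 genes had groups that did not overlap between control and Yap CKO, as 25% of all genes did. Fosl1 fell in Yap CKO (log2 fold change -0.86, SE 0.081, edgeR adjusted p = 0.0188), a call that is lost without control 1 or control 2, when 0 genes are called. Lif had a log2 fold change of -1.28 (edgeR adjusted p = 0.0738) and Aldh1a3 of 1.17 (edgeR adjusted p = 0.158). DESeq2, which called 919 genes in all, called Lif lower and Aldh1a3 higher, and limma-voom called neither. The authors' deposited table lists Fosl1 at -0.85, Lif at -1.27 and Aldh1a3 at 1.17. By the authors' own test their adjusted p-values were 2.97e-05, 5.23e-07 and 0.00056. Prss56 lay between Lif and Aldh1a3 at -0.18. Whether its change differs from theirs was not tested. Tubb6, at 85.0 to 103 CPM in control and 103 to 117 in Yap CKO, and Junb, at 116 to 139 and 87.7 to 149, did not pass by edgeR (log2 fold changes 0.27 and -0.14, edgeR adjusted p = 0.202 and 0.751).

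Within the 6 P60 libraries alone, a measure that does not use C57, 0.651% of genes had r above 0.9 with Prss56 and 2.21% had r below -0.9. The 10 highest, with r from 0.96 to 0.996, included Vps26a, Mgat4b, Gpr26, Elfn2, Prkd2, Prrc1, Trim13, Cdh18 and Ccdc177. Of the 10, 8 had a higher mean at P60 than in C57. Cdh18 and Ccdc177 went the other way from Prss56, with log2 fold changes of -0.33 and -0.52 in control against C57. Vps26a encodes a retromer subunit and Mgat4b a glycosyltransferase of the Golgi. None of the 10 was among the 10 found over 9 libraries (0 shared). Vps26a, the highest, had 67.6, 73.8 and 73.7 CPM in controls, and 63.6, 70.1 and 74.04 CPM for Yap CKO. Its lowest and highest P60 libraries were close, whereas Prss56 spanned 1.65-fold. Over all 10 genes that span was 1.13 to 1.35-fold. All 10 were lowest in Yap CKO 1, as Prss56 was, which their selection by r favours. With 6 libraries such correlations rest on few points, and the same libraries differ in rod content.

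**Figure D5:**
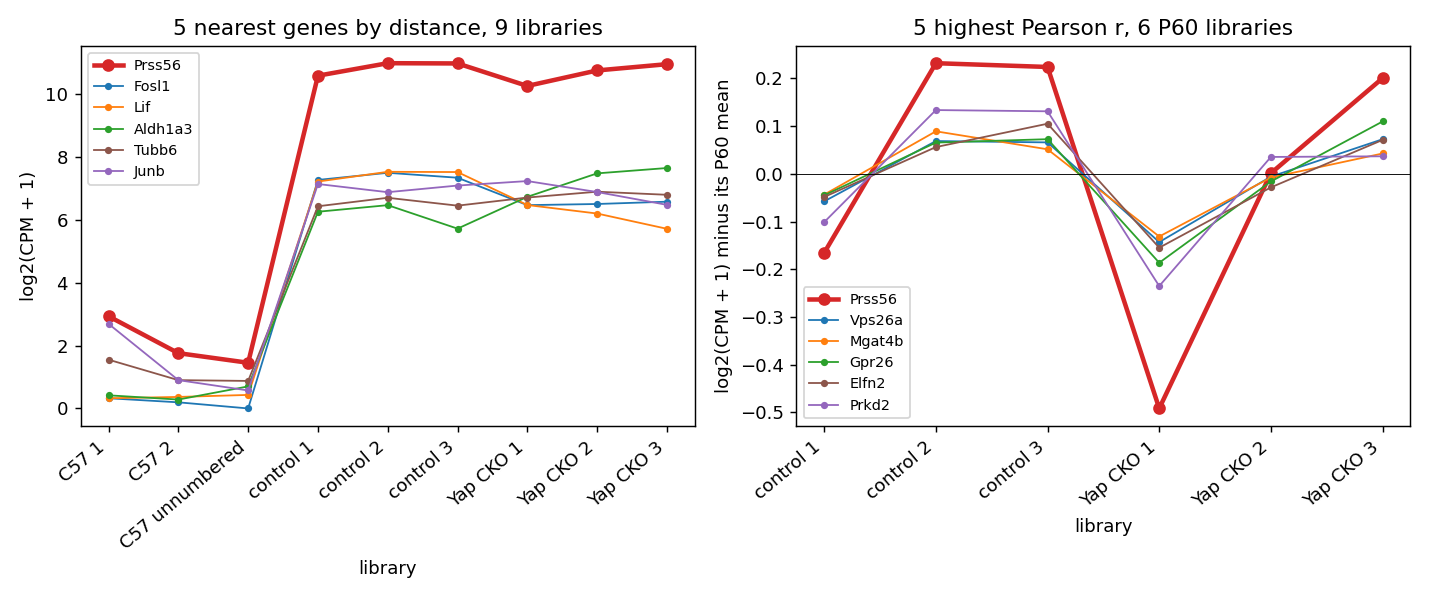
Left, log2(CPM + 1) of Prss56 and of its 5 nearest genes by distance in 9 libraries; right, log2(CPM + 1) minus the P60 mean for Prss56 and the 5 genes with the highest r over the 6 P60 libraries. On the left the genes share the step from C57 to P60, and on the right they share, as their selection favours, the low value of Yap CKO 1 with a smaller span than the 1.65-fold of Prss56.

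Neighbouring genes on chromosome 1 did not share the size of the change. Ecel1, an endopeptidase gene of the minus strand that lies 26792 bp before Prss56, was at 0.58 to 0.62 CPM in C57, 5.34 to 5.93 in control and 3.87 to 6.40 in Yap CKO. It rose in control (log2 fold change 3.18, SE 0.20, edgeR adjusted p = 3.31e-05) and in Yap CKO (3.01, SE 0.30, edgeR adjusted p = 0.000211) against C57. Chrnd, the acetylcholine receptor delta subunit gene that starts 2202 bp after Prss56 on the same strand, had 0 counts over the C57 libraries, 14 over the controls and 13 over Yap CKO. Eif4e2, a translation factor gene 25509 bp downstream, was at 46.9 to 59.6 CPM in C57 and 51.4 to 60.6 CPM at P60 (log2 fold change 0.024, edgeR adjusted p = 0.89 for control against C57). Alpi had 0 CPM in every library, and Akp3 and Chrng were at most at 0.026 CPM.

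Other genes known to set eye size were mixed in direction. Of 23 listed genes 22 were tested. Against C57, 5 were higher and 6 lower in control, and 4 were higher and 8 lower in Yap CKO. Their median log2 fold changes were -0.22 and -0.38. Over all genes, 23.1% were higher and 22.4% lower in control, and 20.3% and 20.2% in Yap CKO, so all but the 8 lower genes in Yap CKO lie near the background. Aldh1a3, the third nearest gene to Prss56 by distance, had the highest fold change of the list (7.44 and 8.59 on the log2 scale). Egr1 and Mfrp, also on the list, were named after their values were seen. Egr1, an immediate-early transcription factor, was at 12.8 to 32.4 CPM in C57, 136 to 181 in control and 111 to 180 in Yap CKO. It rose in control against C57 (log2 fold change 2.92, edgeR adjusted p = 0.000438). Mfrp, a membrane protein of pigment and ciliary epithelium, was at 15.2 to 16.2 CPM in C57, 10.2 to 14.9 in control and 6.58 to 10.9 in Yap CKO.

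The most abundant eye growth genes were mostly lower at P60. Rbp3, the interphotoreceptor retinoid-binding protein, was at 7471 to 9990 CPM in C57, 869 to 4063 in control and 395 to 4365 in Yap CKO, and it fell in control against C57 (log2 fold change -1.96, edgeR adjusted p = 0.0128). Adipor1 fell in control against C57 (log2 fold change -2.01, edgeR adjusted p = 0.000761), as did Crb1, a polarity gene (log2 fold change -2.84, edgeR adjusted p = 0.000683). Aplp2 was at 1799 to 2183 CPM in C57 and 1110 to 1447 CPM at P60. Pax6, a transcription factor of the inner retina, rose slightly in control against C57 (log2 fold change 0.30, edgeR adjusted p = 0.0453). Between Yap CKO and control no gene of the list passed by edgeR (0 called, 1 higher and 2 lower at an unadjusted p under 0.05). DESeq2 called Aldh1a3 higher and Lrp2 lower, and limma-voom called 0. Beside these counts stand 2950 of all 16539 genes at an unadjusted edgeR p under 0.05, and 919 genes called by DESeq2. C1qtnf5, whose transcripts overlap those of Mfrp, had 0 CPM in every library.

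The other trypsin-fold serine proteases were far less abundant than Prss56 at P60: all 42 listed genes together summed to at most 486 CPM in any library. Of the 42, 15 were tested in control against C57, with 8 higher and 2 lower, and 14 in Yap CKO against C57, with 6 higher and 2 lower. Over all genes the shares were 23.1% higher and 22.4% lower in control, and 20.3% and 20.2% in Yap CKO. Low counts removed the rest of the list. Median log2 fold changes of the tested members were 0.89 and 0.87. Members near 0 in C57 pass the filter only through their P60 level, which favours higher calls. Cfb, with 0 counts in C57, was called higher in control and was not tested in Yap CKO against C57. Plat, the tissue plasminogen activator, was at 11.9 to 20.9 CPM in C57, 180 to 252 in control and 131 to 185 in Yap CKO. Prss23 was at 12.3 to 17.9 CPM in C57, 71.7 to 122 in control and 34.9 to 46.3 in Yap CKO. Htra1 was lower than in C57, at 102 to 107 CPM there and 61.9 to 83.8 CPM at P60. Prss36 and C1ra had group means of at most 4.78 and 5.004 CPM.

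In Yap CKO against control, 18 of the 42 were tested and 1 fell. Plau, the urokinase-type plasminogen activator, went from 14.1, 14.96 and 13.7 CPM in the controls to 8.28, 9.16 and 8.70 (log2 fold change -0.71, edgeR adjusted p = 0.0496). The call held in 4 of 16 alternative analyses and was lost without control 1 or control 2, when 0 genes are called. The log2 fold change of Prss23 was -1.17 (edgeR adjusted p = 0.0991). DESeq2, which called 919 genes in all, called Plau and Prss23 lower, and limma-voom called 0 of the list. The authors' deposited table lists Plau at -0.70 and Prss23 at -1.16, with adjusted p of 0.0336 and 2.87e-05 by the authors' own test.

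Serpins and other genes of inhibitor families, many but not all of which block proteases of this fold, were also measured. Of 17 listed genes 14 were tested against C57, with 7 higher and 2 lower in control and 7 higher and 1 lower in Yap CKO, beside 23.1% and 22.4%, and 20.3% and 20.2%, of all genes. One of the higher genes, Serpinb2, had 0 counts in C57 and passed the filter only through its P60 level, which favours a higher call. Serpina3n, an acute-phase serpin whose counts are uncertain because near-identical family copies exist, was at 8.37 to 13.8 CPM in C57, 342 to 422 in control and 507 to 566 in Yap CKO. Serping1, the inhibitor of the first complement component, was at 6.995 to 13.1 CPM in C57, 42.1 to 56.9 in control and 35.9 to 44.8 in Yap CKO. Serpinh1, a collagen chaperone, and Serpinb6a had log2 fold changes of 1.72 and 1.39 in control against C57. Serpini1, the neuronal serpin, and Spint2 had log2 fold changes of 0.050 and -0.59. In Yap CKO against control, 15 were tested and edgeR called 0 (1 higher and 3 lower at an unadjusted p under 0.05), DESeq2 called Serpina3n higher and limma-voom called 0. Over all 16539 genes, 2950 had an unadjusted edgeR p under 0.05, and DESeq2 called 919.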

How the data were processed

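Bulk RNA-seq of 9 mouse retinas was analysed. The deposited table holds raw read counts per gene, not normalized. HISAT2 2.1.0, featureCounts and edgeR, with build GRCm38, are named per the submitters' processing notes; the strand setting is not given in the sources used here. Symbols were found for 47224 of 47729 identifiers. The authors' deposited comparison table gives log2 fold changes and p-values per the file headers; its 9 columns with values per library were not used.

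Genes passed filterByExpr (minimum count 10, total 15). The 6 libraries of each comparison were fitted alone with TMM and edgeR 4.0.16 robust quasi-likelihood tests (R 4.3.3), Benjamini-Hochberg threshold 0.05. The fit was tested on simulated data. Other tools were limma 3.58.1 and DESeq2 1.42.0. The gene and the lists were chosen with earlier results of these data known. Named genes were the 10 highest by r over 9 and over 6 libraries, the 5 nearest by distance, 3 protein-coding neighbours on each side, list members called or highest in level (up to 6 a list), and single defining markers. Pattern genes exclude predicted genes, clones and pseudogenes. Group sizes of 3 limit the precision. Positions are from GENCODE M21, built on GRCm38. Some genes that this rule names are not reported here.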

Additional observations from a re-analysis of the deposited data

How the results depend on the processing

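The Yap CKO difference of Prss56 stayed negative and unadjusted p stayed above 0.05 in all 16 alternatives. Log2 fold changes ran from -0.33 to -0.0022, and leaving out one library each gave that whole range. Adjusted p by edgeR, DESeq2 or limma-voom ran from 0.202, with the rod covariate, to 0.995, without Yap CKO 1. With a replicate block the log2 fold change was -0.19 (edgeR unadjusted p = 0.0549, adjusted p = 0.295). The labels give control and Yap CKO libraries a shared number only. Deviations from the group means correlated at 0.53, -0.076 and 0.011 for libraries of the same number. Libraries of unlike number gave -0.60 to 0.48. With 3 libraries a group these values cannot settle whether libraries were paired. The block raised the count of genes called from 33 to 45. Against C57, the block over libraries 1 and 2 gave 8.68 for control and 8.38 for Yap CKO. Leaving out one library each gave 8.67 to 9.78 and 8.47 to 9.58, highest without C57 1. The level relative to Müller markers ran from -0.36 to -0.00043 without single libraries and was 0.015 with Glul, Rlbp1 and Slc1a3 alone; the cause was not tested.

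Genes called between Yap CKO and control numbered 33, and 15 with RLE scaling, 17 with upper-quartile scaling, 343 without a filter, 15 with a filter of 1 CPM, 919 by DESeq2, 16 by limma-voom, 60 with 9 libraries in one fit, 1663 with the rod covariate, 13 with the Müller covariate and 0 to 1473 without single libraries. Of the listed genes 1 was called. In analyses added after seeing the data, 0 were called with RLE or upper-quartile scaling, a filter of 1 CPM, limma-voom or the Müller covariate, 4 without a filter, 14 by DESeq2, 10 with the rod covariate and 0 to 10 without single libraries. Of the 10 genes most like Prss56 over 9 libraries, 0 were shared with Spearman's rho and 5 without Yap CKO 3. Over the 6 P60 libraries, 1 and 4 were shared. The causes were not tested. Low counts limit the C57 level of Prss56.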
